A study of Mus musculus with 8 samples.

Results

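The Fgf ligand genes described here are 8 genes for secreted fibroblast growth factors, Fgf3, Fgf4, Fgf8, Fgf9, Fgf10, Fgf15, Fgf17 and Fgf18, taken by symbol from a table of 55421 gene identifiers. They were chosen as members of 1 family, with earlier results of these data known. All 8 were in the table, and 7 of them were among the 15717 genes with a mean of at least 1 TPM over the 8 libraries that were tested. TPM, transcripts relative to a fixed library total, scales reads by gene length and by the library's total, so that levels of different genes can be compared. The mean of Fgf17 lay below that minimum, and its values are given without the test across genes.

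Messenger RNA had been sequenced from the vagal part of mouse embryos at embryonic day 9.5, the stretch of the body axis at somites 1 to 7. The comparison was between 4 libraries of mutants that carry Rdh10(trex/trex), hereafter trex, and 4 of wild type embryos, hereafter wt. The labels name no treatment for either group. Rdh10 encodes the retinol dehydrogenase that supplies retinaldehyde for the synthesis of retinoic acid, and the labels name the allele without describing its molecular change. Nor do the labels say whether 1 library is 1 embryo or a pool, or which libraries share a litter, so a p-value measures the spread between these libraries, which may be technical in part.

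Fibroblast growth factors are secreted proteins that bind receptor tyrosine kinases at the cell surface together with heparan sulfate chains. The activated receptor signals through RAS and the MAP kinases to transcription factors of the ETS family, and it induces its own inhibitors of the Sprouty, Spred and dual-specificity phosphatase families. In the early embryo these ligands mark signalling centres such as the tail bud, the border of midbrain and hindbrain, the hindbrain segments beside the ear placode, the pharyngeal arches, the limb ridge and the mesenchyme of the lung and heart. Retinoic acid and FGF signals are known to oppose each other along the body axis, where retinoic acid from the somites bounds the domain of Fgf8 in the tail bud.

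Rdh10 itself stood at 106, 66.2, 62.7 and 69.0 TPM in trex replicates 1 to 4 and at 41.0, 36.3, 40.3 and 37.6 TPM in wt. The transcript was therefore higher in every trex library (76.0 ± 20.2 against 38.8 ± 2.2 TPM, SD, n = 4 each; adjusted p = 0.0126 by limma, 0.00118 without trex replicate 1, but 0.0546 without wt replicate 2 and 0.114 with sex as a covariate), and as the allele need not lower its transcript, this level is no check of the labels. Reads recovered from the TPM values came to 20928971 to 23648645 per library. Trex replicate 1 stood apart from the other trex libraries for many of the genes below, so the ligand results are given with and without it. Y-linked transcripts (summed over Ddx3y, Eif2s3y, Kdm5d and Uty) stood at 162 and 158 TPM in wt replicates 2 and 3 and at 0.0662 TPM or less in the other 6 libraries. Since no trex library was high in them, sex and genotype are partly confounded. A genotype difference with sex as a covariate is that of trex against wt replicates 1 and 4, the same as in those 6 libraries. Markers of neurons were present in all libraries but lower in trex (8 of 8 called, sums of 61.2 to 173 TPM in trex and 370.2 to 652 TPM in wt). Genes of low oxygen and glycolysis were higher in trex (7 of 10 called), with mean log2(TPM + 1) of 9.1, 7.33, 8.24 and 8.7 in trex and 6.78 to 6.89 in wt. Posterior Hox genes (6 of 11 tested called higher, sums of 501 to 646 TPM in trex and 94.8 to 248 TPM in wt) and the liver bud list (0 of 7 tested called, sums of 24.3 to 565 TPM in trex and 10.3 to 201 TPM in wt) also varied between libraries of 1 group. Their part in the results below was not tested, except where a value is given.

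The start regions of 4 ligands that the results turn on are shown first, as the 250 bases before each RefSeq transcription start (RefSeq, GRCm38.p6, 5′ to 3′ along the gene's strand). RefSeq's table gave 5 of the 8 ligands, with no entry for Fgf8, Fgf15 and Fgf17. Fgf3 and Fgf4 are shown because they are neighbours whose values went apart, and Fgf10 and Fgf18 because their groups did not overlap. Capitals mark a retinoid receptor half-site, searched on both strands as AGGTCA or GGGTCA or AGTTCA or GGTTCA.

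Fgf3, chr7:144838362-144838611, plus strand: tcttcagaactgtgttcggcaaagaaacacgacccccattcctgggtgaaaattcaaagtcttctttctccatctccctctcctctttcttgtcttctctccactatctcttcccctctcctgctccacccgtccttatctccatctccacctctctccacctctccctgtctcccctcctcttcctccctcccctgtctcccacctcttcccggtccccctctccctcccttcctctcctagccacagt
Fgf4, chr7:144861136-144861385, plus strand: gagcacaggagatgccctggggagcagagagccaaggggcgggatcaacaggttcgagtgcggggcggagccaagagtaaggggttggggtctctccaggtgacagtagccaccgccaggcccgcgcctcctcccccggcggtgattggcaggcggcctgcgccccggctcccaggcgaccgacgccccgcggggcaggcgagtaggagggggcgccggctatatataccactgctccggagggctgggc
Fgf10, chr13:118714449-118714698, plus strand: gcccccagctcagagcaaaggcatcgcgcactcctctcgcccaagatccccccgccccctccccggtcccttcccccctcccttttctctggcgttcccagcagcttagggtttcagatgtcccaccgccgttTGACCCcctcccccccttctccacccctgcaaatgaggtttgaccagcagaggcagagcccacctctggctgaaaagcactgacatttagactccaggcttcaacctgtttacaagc
Fgf18, chr11:33147401-33147650, minus strand: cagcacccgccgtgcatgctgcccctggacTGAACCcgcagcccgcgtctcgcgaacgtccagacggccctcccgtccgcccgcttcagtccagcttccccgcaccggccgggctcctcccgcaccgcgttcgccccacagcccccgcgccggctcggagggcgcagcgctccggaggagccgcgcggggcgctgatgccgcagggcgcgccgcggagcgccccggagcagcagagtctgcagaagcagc

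Fgf10 held 1 half-site, TGACCC, beginning 117 bases before its start, and Fgf18 held 1, TGAACC, beginning 220 bases before its start. Neither the Fgf3 nor the Fgf4 window held those letters, nor did that of Fgf9. Over 32851 promoter windows of the same length, 38.6% held such a half-site. No window of the 5 ligands held 2 half-sites as a direct repeat with 1, 2 or 5 bases between them, an arrangement that 0.426% of all windows held. The GC content was 55.2% for Fgf3, 71.2% for Fgf4, 61.2% for Fgf10 and 77.2% for Fgf18, beside a median of 52.4% over all windows. The Fgf3 window lies inside the GENCODE model, where 17 of its bases are exonic, the Fgf4 and Fgf10 windows lie in introns of longer GENCODE transcripts, and the Fgf18 window lies outside the model. The letters are a description of these windows, and no binding was measured.

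Transcripts of Fgf3 and Fgf15, neighbours on chromosome 7, were higher in trex, by 3.54-fold and 3.79-fold in mean TPM. Of the 7 tested ligands these were the 2 called higher at an adjusted p under 0.05, and 0 were called lower. Over all tested genes 8.71% were called, 4.94% higher and 3.77% lower. Before adjustment, 3 ligands were higher (Fgf3, Fgf10 and Fgf15) and 1 lower (Fgf18) at p under 0.05 by limma. The share of all tested genes at that unadjusted cut was not counted, so these numbers have no background beside them. With adjustment, limma voom on the recovered reads called 1 higher (Fgf3) and 0 lower. Quantile normalization called 2 higher and 1 lower (Fgf18). The numbers called over all genes were 777 higher and 592 lower, against 633 and 739 after quantile normalization and 642 and 820 with limma voom. The median difference of the 7 ligands was 0.35 on the log2(TPM + 1) scale, beside 0.04 over all tested genes.

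The 4 trex values lay above all 4 wt values for 3 ligands, Fgf3, Fgf10 and Fgf15, as for 12.9% of tested genes. They lay below all wt values for 1 ligand, Fgf18, as for 8.95% of tested genes. Values of the other 4 ligands, Fgf4, Fgf8, Fgf9 and Fgf17, overlapped between the groups. In tissue pieces such as these, more cells that express a ligand and more transcript per cell cannot be told apart.

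**Figure D1:**
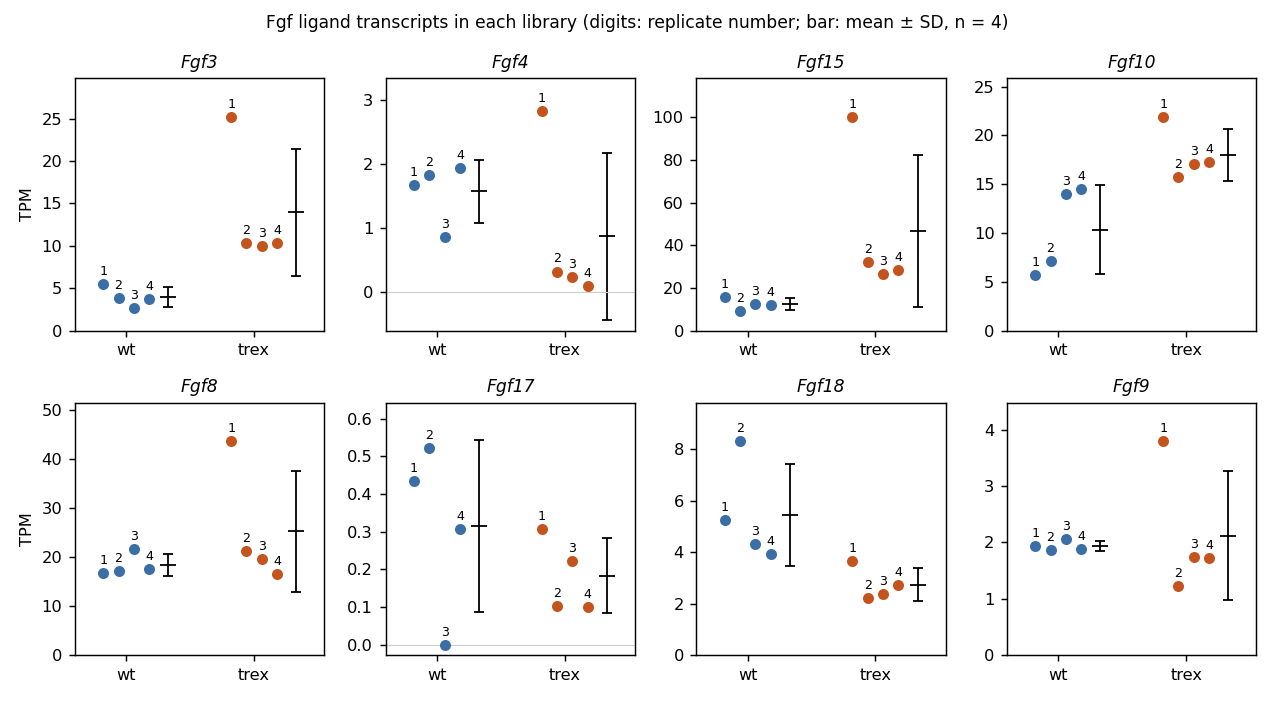
TPM of the 8 ligands in each library, 1 panel per gene, with the replicate number beside each point and the mean ± SD (n = 4) as a bar; panels have their own scales. Trex replicate 1 is the highest trex library in all 8 panels, from 1.31 times (Fgf10) to 12.7 times (Fgf4) the mean of the other trex libraries.

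The 8 ligands summed to 202, 83.3, 77.6 and 77.4 TPM in trex and to 53.1, 49.9, 58.1 and 55.7 TPM in wt. They made up 80.5% to 85.6% of the summed TPM of 18 genes for secreted FGFs in wt and 90.3% to 97.3% in trex. In wt the order by mean TPM was Fgf8, Fgf15, Fgf10, Fgf18, Fgf3, Fgf9, Fgf4 and Fgf17. The ranges of neighbours in that order overlapped, except between Fgf8 and Fgf15, between Fgf3 and Fgf9 and between Fgf4 and Fgf17. In trex it was Fgf15, Fgf8, Fgf10, Fgf3, Fgf18, Fgf9, Fgf4 and Fgf17, and the only neighbours whose ranges did not overlap were Fgf3 and Fgf18. Fgf8 was the most abundant ligand in all 4 wt libraries and Fgf15 in all 4 trex libraries. Fgf15 took 33.8% to 49.7% of the 8 ligands' sum in trex and 18.4% to 29.9% in wt, whereas Fgf8 took 21.4% to 25.5% in trex and 31.5% to 37.3% in wt. These shares did not overlap between the groups, although the level of Fgf8 did. Since the sum holds Fgf15 and Fgf3, the share of Fgf8 falls when they rise and is no separate difference.

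Fgf3 signals from the hindbrain and the pharyngeal endoderm and takes part in the induction of the inner ear. It lies on the plus strand of chromosome 7 at 144838083 to 144844436 (ENSMUSG00000031074). Its level was 25.2, 10.3, 9.97 and 10.3 TPM in trex and 5.46, 3.87, 2.65 and 3.77 TPM in wt, from 123 to 338 reads per trex library and 36 to 69 per wt library. Trex replicate 1 was 2.47 times the mean of the others, and even the lowest trex library lay above the highest wt library. The means were 13.9 ± 7.5 and 3.94 ± 1.15 TPM, and the difference in log2(TPM + 1) was 1.52 ± 0.30 (SE, adjusted p = 0.0222 by limma; exact two-sided permutation p = 0.0286, the smallest that 4 against 4 allows). Without trex replicate 1 the trex mean was 10.2 ± 0.201 TPM, a 2.59-fold difference, with an adjusted p of 0.00886. The call ended without trex replicate 4 (adjusted p = 0.0535), wt replicate 2 (0.0778), wt replicate 3 (0.0677) or wt replicate 4 (0.0559), with sex as a covariate (0.173) and in the 6 libraries low in Y-linked transcripts (0.282).

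Fgf15, the mouse counterpart of human FGF19, is known in the embryo from the neural tube and pharyngeal arches and later as a gut hormone that controls bile acid synthesis. It lies on the plus strand of chromosome 7 at 144896531 to 144900953 (ENSMUSG00000031073). Its level was 100.2, 32.2, 26.3 and 28.5 TPM in trex and 15.9, 9.17, 12.5 and 11.8 TPM in wt. All 4 trex libraries were higher than every wt library, and trex replicate 1 was 3.45 times the mean of the other trex libraries. The means were 46.8 ± 35.7 and 12.4 ± 2.77 TPM, with a difference in log2(TPM + 1) of 1.63 ± 0.39 (SE, adjusted p = 0.0398 by limma; exact permutation p = 0.0286). Without trex replicate 1 the trex mean was 29.0 ± 3.01 TPM, 2.35-fold the wt mean, with an adjusted p of 0.00736. The call ended when trex replicate 3 or 4 or any 1 wt library was left out (adjusted p = 0.0534 to 0.121), with no filter (0.0789), without the trend (0.0579), with limma voom (0.0577), with sex as a covariate (0.216) and in the 6 libraries low in Y-linked transcripts (0.325). The antisense gene Gm26793 overlaps the start of Fgf15 and had a mean of 2.64 ± 1.57 TPM in trex, against 1.39 ± 0.397 TPM in wt, and since the strand setting of the counting is not given, reads of the pair may not be separated.

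Markers of the tissues in which these ligands are known went in different directions. Among genes of rhombomeres 4 to 6, hindbrain segments, Hoxb1 was called lower, and the list summed to 171 to 246 TPM in trex and 178 to 199.8 TPM in wt. Its mean log2(TPM + 1) was 5.18 in trex replicate 1, 4.2 to 4.63 in the other trex libraries and 4.19 to 4.35 in wt. Egr2, a gene of the hindbrain segments, stood at 15.9 TPM in trex replicate 1, at 0.0511 to 4.27 TPM in the other trex libraries and at 0.325 TPM or less in wt. Among otic vesicle genes, Dlx5 was called higher and Gbx2 lower. That list summed to 26.3 to 59.0 TPM in trex and 34.7 to 42.2 TPM in wt, and Hmx3 was at 5.12 TPM in trex replicate 1 and at 1.04 TPM or less in the other 7 libraries, among them 0 in trex replicate 4 and wt replicate 3. Fgf3 and Fgf15 were thus high in the library with the highest mean level of both lists, and both remained higher in trex without it. Of 8 neural tube progenitor genes, Pax6, Pax7 and Neurog1 were called lower and 0 higher, with sums of 310 to 432 TPM in trex and 422 to 506 TPM in wt. Their mean log2(TPM + 1) was lower in every trex library (4.64 to 5.11) than in wt (5.27 to 5.55), with 5 of the 8 genes not called. Of 7 pharyngeal endoderm genes, 6 were tested and Nkx2-3 was called higher, with sums of 130.1 to 173 TPM in trex and 128 to 145 TPM in wt. Gcm2 of that list was at 0 in trex replicates 1 and 4. A link between any of these lists and Fgf3 or Fgf15 was not tested.

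Fgf4 lies between these genes. It is known from the tail bud, the limb ridge and the myotome, the part of the somite that forms skeletal muscle. Its GENCODE model spans 144847367 to 144865243 on the plus strand (ENSMUSG00000050917), which places the trio within 62.9 kb, with 2.93 kb between Fgf3 and Fgf4 and 31.3 kb between Fgf4 and Fgf15. The level of Fgf4 was 2.82, 0.326, 0.236 and 0.107 TPM in trex and 1.67, 1.82, 0.858 and 1.94 TPM in wt. Trex replicate 1 was the highest of all 8 libraries, and the other 3 trex libraries were lower than every wt library. With all libraries the means were 0.873 ± 1.30 and 1.57 ± 0.489 TPM, and the difference of -0.64 ± 0.39 in log2(TPM + 1) was not called (adjusted p = 0.296 by limma; exact permutation p = 0.171).

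Leaving out trex replicate 1 brought the mean of trex Fgf4 to 0.223 ± 0.11 TPM, which made wt 7.05-fold higher, and the gene was then called lower (adjusted p = 0.0212 by limma). Weighting each library by how closely it follows its group over all genes had the same outcome (adjusted p = 0.00578 by limma). These weights come from the same values, at 0.139 for trex replicate 1 and 5.5 for trex replicate 3. The weighted fit is thus close to leaving out trex replicate 1 and is no separate check. The trex values of replicates 2, 3 and 4 rest on 6, 4 and 2 reads, with exact 95% Poisson intervals of 2.2 to 13.1, 1.09 to 10.2 and 0.242 to 7.22 reads, which cover counting error only. The wt values rest on 16 to 36 reads. Fold and log2 differences diverge because adding 1 TPM shrinks the change of genes at this level.

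Within the trio, Fgf15 and Fgf3 kept a similar ratio in both groups, while Fgf4 did not keep pace with Fgf3. Fgf15 was 2.63 to 3.98 times Fgf3 in trex and 2.37 to 4.73 times in wt. Fgf4 came to 11.2%, 3.17%, 2.37% and 1.03% of the TPM of Fgf3 in trex and to 30.6%, 47.1%, 32.4% and 51.4% in wt. These percentages did not overlap, but Fgf3 is their divisor and was higher in trex, so they fall even at an unchanged level of Fgf4. In trex replicate 1 the percentage was low although Fgf4, at 2.82 TPM, was at its highest. The percentages of trex replicates 2, 3 and 4 rest on 6, 4 and 2 reads of Fgf4. The protein-coding genes that flank the trio within 250 kb are Ano1, a chloride channel gene, on the Fgf3 side, and LTO1 and Ccnd1, the gene of cyclin D1, on the Fgf15 side. None of these was called, but the 4 trex values of Ano1 and Ccnd1 lay above all 4 wt values (exact permutation p = 0.0286 each). Ano1 had 6.69 ± 4.01 TPM in trex against 3.39 ± 0.333 TPM in wt (adjusted p = 0.149), and LTO1, the nearest on its side, at 17.8 ± 1.01 and 18.8 ± 0.635 TPM (adjusted p = 0.452). Ccnd1 stood at 309.9 ± 31.4 and 264 ± 10.9 TPM (adjusted p = 0.087). Bc1, a short noncoding RNA gene between Fgf15 and LTO1, stood at 38.3 ± 28.9 and 44.4 ± 9.79 TPM (adjusted p = 0.514). The other annotated noncoding genes and pseudogenes of the window, Gm26793 apart, were at 0.524 TPM or less in every library.

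**Figure D2:**
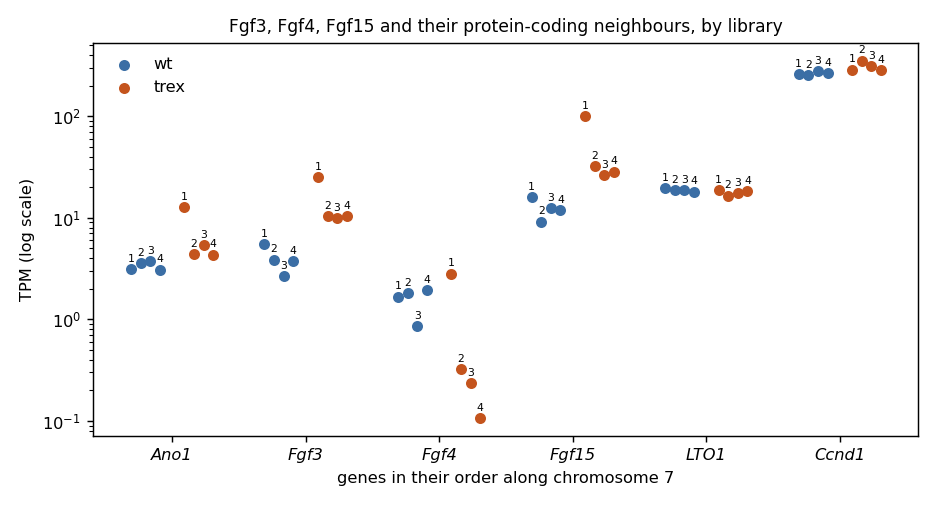
TPM (log scale) of Fgf3, Fgf4 and Fgf15 and the protein-coding genes beside them on chromosome 7, in their order along the chromosome, for each library with its replicate number. Fgf3 and Fgf15 are higher in all trex libraries, and LTO1 is at 16.5 to 19.7 TPM throughout. Fgf4 is at 2.82 TPM in trex replicate 1 and at 0.107 to 0.326 TPM in trex replicates 2 to 4, against 0.858 to 1.94 TPM in wt.

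Of 8 myotome genes, 7 were tested and Mrln, Tnnc2 and Myh3 were called lower, with sums of 86.9 to 1181 TPM in trex and 316 to 1341 TPM in wt. The mean log2(TPM + 1) of the list was 1.95, 3.0, 3.4 and 3.62 in trex and 4.09 to 4.5 in wt. Myog, a transcription factor gene of differentiating muscle, stood at 0.928 TPM in trex replicate 1, 11.6 to 19.6 TPM in the other trex libraries and 32.5 to 47.5 TPM in wt. Myf5, which marks the early myotome and its precursors, was instead at 19.0 TPM in trex replicate 1, 10.9 to 14.0 TPM in the other trex libraries and 8.04 to 12.9 TPM in wt (adjusted p = 0.249). The library with most Fgf4 was thus the lowest in the mean of the list but the highest in Myf5. Of 8 genes of caudal progenitors, the other tissue in which Fgf4 is known, 6 were tested and Wnt3a was called higher, with sums of 38.9 to 75.3 TPM in trex and 34.8 to 45.1 TPM in wt. Their mean log2(TPM + 1) was 2.47 in trex replicate 1, 2.01 to 2.28 in the other trex libraries and 1.74 to 2.01 in wt.

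Fgf10, a mesenchymal ligand needed for lung and limb buds and a marker of the anterior second heart field, lies on the plus strand of chromosome 13 at 118669791 to 118792115 (ENSMUSG00000021732). Its level was 21.9, 15.7, 17.1 and 17.3 TPM in trex and 5.72, 7.09, 14.0 and 14.5 TPM in wt. The trex libraries were all higher, but only just, since wt replicates 3 and 4 came close to the lowest trex library and wt replicates 1 and 2 were well below. The means were 18.0 ± 2.71 and 10.3 ± 4.56 TPM, 1.75-fold apart, and the difference of 0.83 ± 0.27 in log2(TPM + 1) was not called (adjusted p = 0.092 by limma; exact permutation p = 0.0286). Without trex replicate 1 the trex mean was 16.7 ± 0.901 TPM, 1.62-fold the wt mean, with a difference of 0.74 (adjusted p = 0.154). Of 22 alternatives, 1 called Fgf10 higher, with weighted libraries (adjusted p = 0.0347 by limma).

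The spread of Fgf10 in wt ran beside that of the posterior Hox and liver bud lists, and a link between them was not tested. In wt replicates 1 to 4 the mean log2(TPM + 1) of the posterior Hox list was 2.06, 1.69, 3.37 and 3.23, and that of the liver bud list 1.09, 0.83, 3.73 and 3.6. Replicates 3 and 4 were thus high and replicates 1 and 2 low for Fgf10 and for both lists. In trex the posterior Hox list was at 4.34 to 4.69, and the liver bud list ranged from 1.33 in replicate 1 to 4.83 in replicate 4, while Fgf10 stayed within 15.7 to 21.9 TPM. Of the lung primordium list, 4 of 5 genes were tested and Nkx2-1 and Wnt2b were called lower, Sftpc was at 0 in all libraries, and the sums were 20.0 to 63.4 TPM in trex and 34.7 to 57.0 TPM in wt. Of 7 second heart field genes, Hand2 was called higher and Isl1 and Osr1 lower, with sums of 137 to 207 TPM in trex and 133 to 179.9 TPM in wt. Of 7 lateral plate and limb genes, Hand1 was called higher and 0 lower. That list summed to 177 to 324 TPM in trex and 175 to 237 TPM in wt, with a median difference of 0.06.

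**Figure D3:**
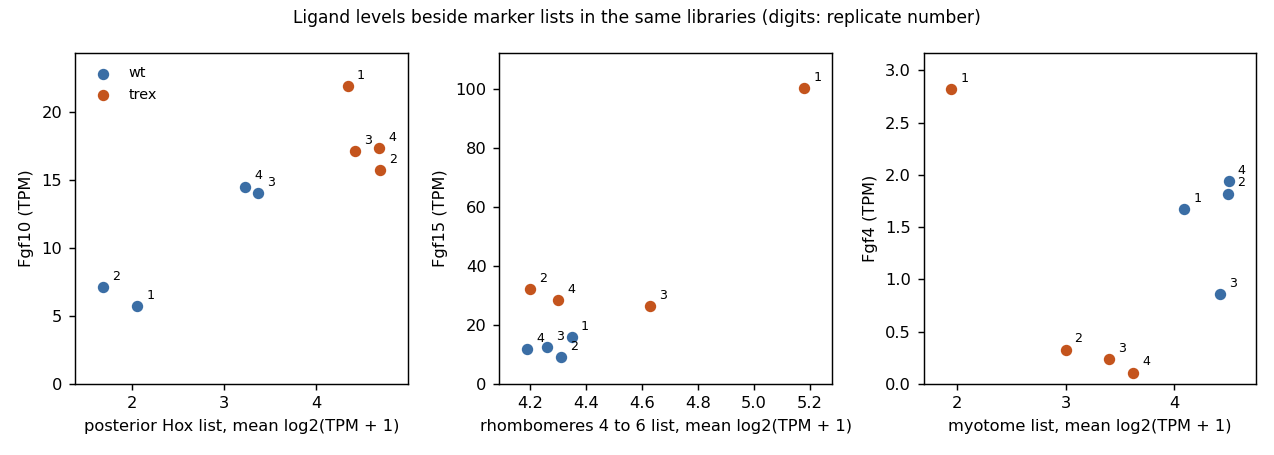
Levels of 3 ligands (TPM) against the mean log2(TPM + 1) of a marker list in the same libraries, with replicate numbers: Fgf10 against posterior Hox genes, Fgf15 against rhombomeres 4 to 6 and Fgf4 against the myotome. For Fgf10, wt replicates 3 and 4 (14.0 and 14.5 TPM) lie between wt replicates 1 and 2 and the trex libraries on both axes, and in the other panels trex replicate 1 lies alone.

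Fgf8, Fgf17 and Fgf18 form 1 subfamily and are known together from the border of midbrain and hindbrain. Fgf8 is also the ligand of the tail bud and the pharynx whose domain retinoic acid is known to restrict. It lies on the minus strand of chromosome 19 at 45736798 to 45742915 (ENSMUSG00000025219). Its level was 43.7, 21.2, 19.7 and 16.5 TPM in trex and 16.8, 17.2, 21.7 and 17.6 TPM in wt. Only trex replicate 1 lay above the wt range, and the other trex libraries lay within it or just below. The means of 25.3 ± 12.4 and 18.3 ± 2.27 TPM differed by 0.35 ± 0.26 in log2(TPM + 1) (adjusted p = 0.392 by limma; exact permutation p = 0.371). Without trex replicate 1 the trex mean was 19.2 ± 2.4 TPM, 1.05-fold the wt mean, with a difference of 0.06 in log2(TPM + 1) (adjusted p = 0.767).

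Fgf18, a ligand known from the developing lung and skeleton, lies on the minus strand of chromosome 11 at 33117430 to 33147400 (ENSMUSG00000057967). Its level was 3.65, 2.2, 2.38 and 2.73 TPM in trex and 5.27, 8.32, 4.33 and 3.91 TPM in wt, from 15 to 25 and 27 to 56 reads. Each trex library was below every wt library. The means were 2.74 ± 0.647 and 5.46 ± 1.99 TPM, which placed wt 1.99-fold higher, and the difference of -0.76 ± 0.22 in log2(TPM + 1) missed the threshold (adjusted p = 0.0648 by limma; exact permutation p = 0.0286). It passed in 3 of 21 alternatives: without trex replicate 1 (adjusted p = 0.0456 by limma), after quantile normalization (0.0354) and with weighted libraries (0.00673). It was not called with no filter (0.133), with sex as a covariate (0.316) or in the 6 libraries low in Y-linked transcripts (0.34). With 1 library left out, the adjusted p reached up to 0.14.

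Fgf17, on the minus strand of chromosome 14 at 70636203 to 70642268 (ENSMUSG00000022101), was close to the limit of detection. Its level was 0.308, 0.103, 0.223 and 0.101 TPM in trex and 0.436, 0.522, 0 and 0.306 TPM in wt. These rest on 3, 1, 2 and 1 reads in trex and 4, 5, 0 and 3 in wt, and the 0 in wt replicate 3 allows a level of up to 0.304 TPM (3 reads). Fgf17 thus had the lowest value of the ligands in every library. In trex replicates 2, 3 and 4 its order against Fgf4 is uncertain, at 1, 2 and 1 reads against 6, 4 and 2. A difference between genotypes was not detectable at this depth (exact permutation p = 0.429). Of 6 markers of midbrain and isthmus, 4 were tested and En1 was called lower, with sums of 29.7 to 56.6 TPM in trex and 36.0 to 45.5 TPM in wt. Otx2, a midbrain gene, stood at 5.46 TPM in trex replicate 1, 0.535 to 1.47 TPM in the other trex libraries and 0.408 TPM or less in wt.

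Fgf9, an epithelial ligand that acts on the mesenchyme of the lung and gut, lies on the plus strand of chromosome 14 at 58070547 to 58112720 (ENSMUSG00000021974). Its level was 3.8, 1.23, 1.74 and 1.72 TPM in trex and 1.94, 1.86, 2.06 and 1.89 TPM in wt. Trex replicate 1 was above all wt libraries and the other trex libraries were below them. The means of 2.13 ± 1.14 and 1.94 ± 0.0903 TPM differed by 0.03 ± 0.23 in log2(TPM + 1) (adjusted p = 0.948 by limma), and by -0.20 without trex replicate 1 (adjusted p = 0.365). No direction is given for Fgf9, since its sign held in 15 of 21 alternatives.

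**Figure D4:**
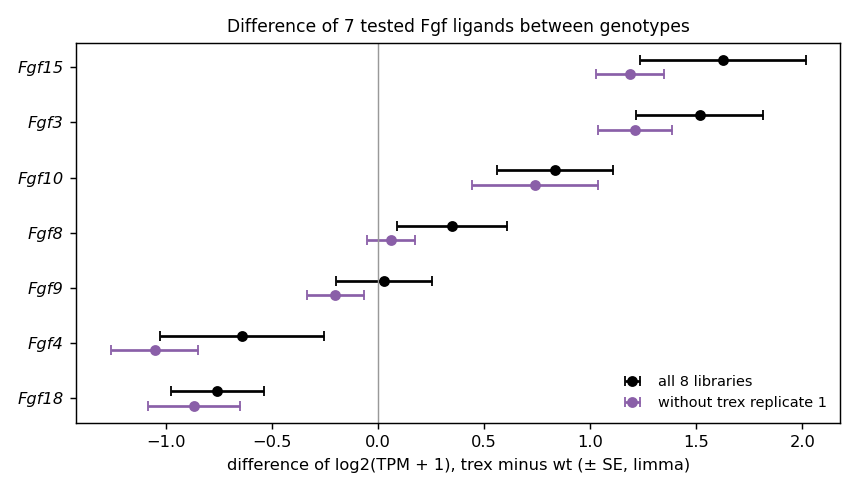
Difference in log2(TPM + 1), trex minus wt, with its SE from limma for the 7 tested ligands, in all 8 libraries (black) and without trex replicate 1 (purple). Fgf15 and Fgf3 are at 1.63 and 1.52 with all libraries and at 1.19 and 1.21 without replicate 1, while Fgf4 moves from -0.64 to -1.05 and Fgf8 from 0.35 to 0.06.

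The genes whose course over the 8 libraries was most like that of Fgf3 and Fgf15 were sought by the mean absolute difference of log2(TPM + 1), after each gene's wt mean was subtracted, among 13438 genes. For Fgf3 these were Rgcc (0.174), Fgf15 (0.214) and Mir335 (0.238), and for Fgf15 they were Rgcc (0.205), Fst (0.212) and Fgf3 (0.214). Each of the neighbouring ligands was thus among the nearest to the other, and the genes share the libraries and so the high values of trex replicate 1. Rgcc, a regulator of the cell cycle, stood at 40.2, 10.0, 12.1 and 14.7 TPM in trex and 4.66 to 7.62 TPM in wt. Fst, which encodes follistatin, an inhibitor of activin, stood at 119, 59.5, 50.7 and 50.3 TPM in trex and 14.7 to 20.6 TPM in wt. Mir335 lies within Mest on the same strand, at a mean of 2534 TPM for Mest, so its reads cannot be told from those of its host.

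Among 10 other genes for secreted FGFs, 3 reached the tested level and Fgf6 was called lower. Fgf6, like Fgf4 a ligand known from the myotome, fell from 2.21 ± 0.244 TPM in wt to 0.335 ± 0.243 TPM in trex. Its libraries were at 0.112, 0.597, 0.486 and 0.146 TPM in trex and 2.02, 2.50, 2.32 and 2.00 TPM in wt, a difference of -1.28 ± 0.17 in log2(TPM + 1) (adjusted p = 0.00771 by limma). Trex replicate 1 was here the lowest library, and the call held with any 1 library left out (adjusted p = 0.00437 to 0.0411) but not with sex as a covariate (0.0851) or in the 6 libraries low in Y-linked transcripts (0.188). None of the 4 intracellular FGF homologous factors, which do not signal through the receptors, was called. Their median difference was -0.07.

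The receptors and co-receptors gave no call among 5 tested of 7 listed genes, with a median difference of 0.12. The 4 trex values of Fgfr1 and Fgfr2 lay above all 4 wt values (exact permutation p = 0.0286 each), as for 12.9% of tested genes. Fgfr1 had 87.9 ± 5.53 TPM in trex against 80.8 ± 3.54 TPM in wt (adjusted p = 0.201), and Fgfr2, the receptor of Fgf3 and Fgf10 in epithelia, at 67.8 ± 10.5 and 56.4 ± 1.45 TPM (adjusted p = 0.122, and 0.0476 without trex replicate 1). The long GENCODE model of Fgfr2 spans other genes of the same strand, so its level is uncertain. Fgfr3 was at 36.6 ± 6.6 and 45.8 ± 8.86 TPM (adjusted p = 0.222), and Fgfr4, the least abundant of the signalling receptors, at 3.64 ± 1.03 and 5.54 ± 1.0 TPM (adjusted p = 0.124).

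Of 12 feedback and target genes of the pathway, all tested, 1 was called higher and 0 lower, with a median difference of 0.16. The gene called was Flrt3, which encodes a membrane protein that binds FGF receptors. It stood at 132, 94.8, 91.7 and 95.1 TPM in trex and 52.7, 53.2, 64.0 and 69.1 TPM in wt, 1.73-fold apart (adjusted p = 0.0149 by limma, 0.00916 without trex replicate 1, but 0.061 without wt replicate 2 and 0.121 with sex as a covariate). The Sprouty genes, inhibitors that FGF signalling induces, were not called, with Spry1 at 50.5 ± 18.5 and 42.1 ± 0.596 TPM, Spry2 at 71.1 ± 21.2 and 64.1 ± 2.22 TPM and Spry4 at 8.25 ± 1.53 and 6.84 ± 0.876 TPM in trex and wt (adjusted p = 0.517, 0.679 and 0.288). Dusp6, a phosphatase that inactivates ERK, was at 129 ± 35.6 and 115 ± 4.19 TPM (adjusted p = 0.59). The ETS genes Etv4 (22.4 ± 2.55 and 23.3 ± 2.49 TPM) and Etv5 (30.1 ± 7.78 and 30.4 ± 3.26 TPM) had adjusted p values of 0.747 and 0.896. In trex replicate 1, Spry1, Spry2 and Dusp6 stood at 78.0, 103 and 183 TPM, above the other 7 libraries. The differences of these 3 genes, 0.20, 0.11 and 0.13 with all libraries, changed sign without it, to -0.03, -0.08 and -0.05 (adjusted p = 0.766, 0.267 and 0.495), so no direction is given for them.

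**Figure D5:**
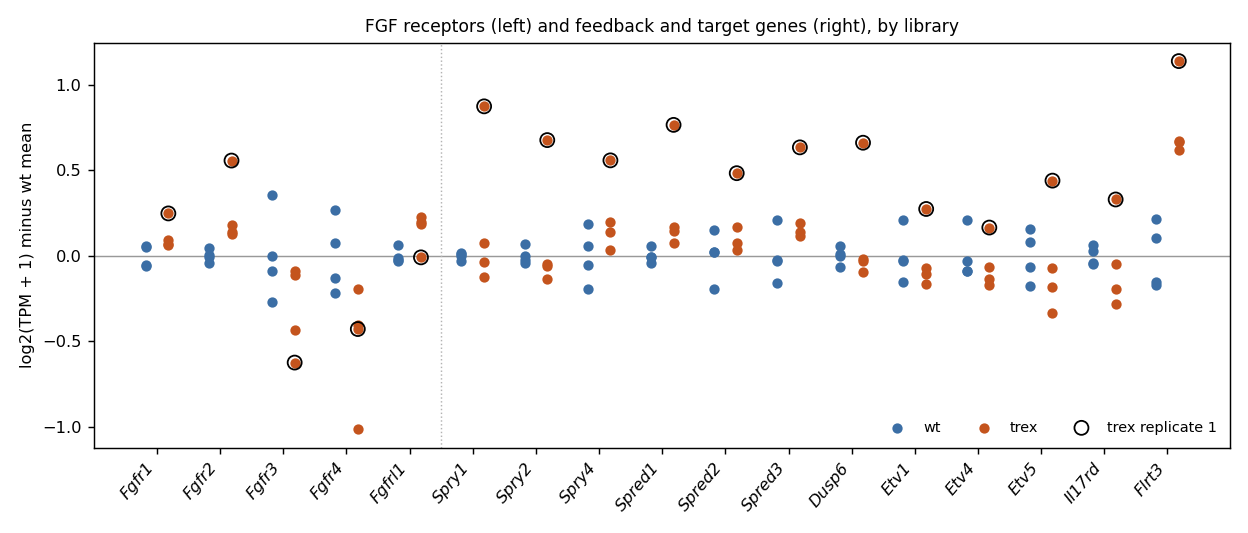
Each library's log2(TPM + 1) minus the wt mean of the gene, for tested FGF receptors (left of the dotted line) and feedback and target genes (right), with trex replicate 1 circled. Flrt3 is above all wt libraries in all 4 trex libraries, whereas Spry1, Spry2 and Dusp6 are above the wt values in trex replicate 1 and near or below them in most of the other trex libraries.

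Of 9 genes that relay the signal inside the cell, Map2k1 and Mapk3, kinases of the MAP kinase cascade, were called higher. Map2k1 had 187 ± 40.1 TPM in trex against 126 ± 2.33 TPM in wt (1.48-fold, adjusted p = 0.0489 by limma), and Mapk3 at 213 ± 20.8 and 171 ± 5.23 TPM (1.24-fold, adjusted p = 0.0337). Of 9 genes of heparan sulfate enzymes, which shape the chains that FGFs bind, Sulf1 (41.5 ± 10.0 and 25.1 ± 5.47 TPM, adjusted p = 0.0484) and Hs6st2 (40.5 ± 7.99 and 28.4 ± 2.28 TPM, adjusted p = 0.0488) were called higher. The median difference was 0.12 for the relay list and 0.06 for the enzymes, close to the 0.04 over all tested genes. When single libraries were left out, Map2k1 was no longer called in 7 of 8 cases, nor were Mapk3, Sulf1 and Hs6st2 in 6 of 8 each (adjusted p up to 0.127, 0.106, 0.127 and 0.132). The libraries whose loss left a call in place were trex replicate 2 for Map2k1, trex replicates 1 and 2 for Mapk3 and Hs6st2, and trex replicate 2 and wt replicate 1 for Sulf1. With sex as a covariate none of these 4 genes was called (adjusted p = 0.212 for Map2k1, 0.168 for Mapk3, 0.26 for Sulf1 and 0.234 for Hs6st2).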

How the data were processed

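The authors deposited 1 table of TPM values per gene identifier, with a column for each of the 8 libraries. Per the labels, the libraries were stranded, poly-A selected and made from total RNA. The submitters' processing notes name CASAVA 1.8.2, STAR and the mm10 build. The counting tool, strand setting, annotation and gene lengths behind the values were not given in the sources used here. Replicates are numbered 1 to 4 by the replicate label, whereas the wt columns carry other numbers. Gene names, coordinates and exonic lengths came from GENCODE M21 (55240 of 55421 identifiers matched). TPM keeps no depth, so reads were recovered from the steps of the low values: 98.7% to 98.9% of values up to 200 reads were whole within 0.001 read. The total was 20928971 to 23648645 reads per library.

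Genes with a mean of at least 1 TPM over all libraries were tested on log2(TPM + 1) with limma 3.58.1 in R 4.3.3 (eBayes with trend), trex against wt with no covariate. The p-values were two-sided and adjusted by Benjamini-Hochberg over 15717 genes, and a call is an adjusted p under 0.05. Differences on this scale understate changes of low genes. Correlation between libraries was 0.944 to 0.988. Single ligands also had an exact permutation test. The procedure was tested on simulated data. The members and gene lists were chosen with earlier results of these data known. Named were the ligands, up to 3 called genes of each pathway list by smallest p, Fgfr1 to Fgfr4, Spry1, Spry2, Spry4, Dusp6, Etv4, Etv5, Rdh10, the genes within 250 kb of the chromosome 7 trio, and the 3 genes most like each called ligand; other genes are named as marker examples chosen after their values were seen. Alternatives were other pseudocounts, filters, scalings, variance and weighting choices, a replicate block, sex as a covariate, limma voom on recovered reads and leaving out each library; an alternative added after the data were seen kept just the 6 libraries low in Y-linked transcripts. The calls of some genes of the hindbrain and otic lists are not reported here.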

Additional observations from a re-analysis of the deposited data

Results flagged for a closer look

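For the ligands, the named pathway genes and Rdh10, the 4 values of each group were searched for a single extreme library, 1 whose gap to its nearest neighbour takes up most of the group's range (Dixon's criterion). Chance alone marks about 1 in 20 such groups; here 11 of 50 were marked, 10 of them for trex replicate 1. For the ligands, trex replicate 1 held 25.2 TPM of Fgf3 where the other trex libraries held 9.97 to 10.3 TPM. It held 2.82 TPM of Fgf4 (others 0.107 to 0.326) and 100.2 TPM of Fgf15 (others 26.3 to 32.2). In wt, replicate 3 held 21.7 TPM of Fgf8 (others 16.8 to 17.6). Of the pathway genes, trex replicate 1 held 132 TPM of Flrt3 (others 91.7 to 95.1), 96.1 TPM of Fgfr1 (84.5 to 86.2) and 83.4 TPM of Fgfr2 (61.6 to 64.1). It also held 78.0 TPM of Spry1 (38.6 to 44.3), 103 TPM of Spry2 (58.2 to 61.9), 183 TPM of Dusp6 (108 to 114) and 106 TPM of Rdh10 (62.7 to 69.0).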

How the results depend on the processing

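Fgf3, Fgf10 and Fgf15 were higher and Fgf4 and Fgf18 lower in trex under every alternative run, called or not. The count of ligands called higher, 2 as reported, was 1 with no filter, without the trend or with limma voom, 0 with sex as a covariate or in the 6 libraries low in Y-linked transcripts, 3 with array weights (Fgf10 added, adjusted p = 0.0347), and 0 to 2 when 1 library was left out. The count called lower, 0 as reported, was 1 after quantile normalization, 2 with array weights and 0 to 2 when 1 library was left out (2, Fgf4 and Fgf18, without trex replicate 1). Groups did not overlap for 4 ligands, and for 6 without trex replicate 1. Smaller groups separate more easily, and the share of all tested genes without that library was not counted, so the 2 numbers cannot be compared. Over all genes, 1369 were called; the count was 694 with no filter, 5524 with array weights, 39 with sex as a covariate, 8 in the 6 libraries low in Y-linked transcripts, and 201 (without wt replicate 2) to 2911 (without trex replicate 2) when 1 library was left out. The fit with sex as a covariate and the fit in the 6 libraries gave the same differences (1.319 for Fgf3 and 1.463 for Fgf15 in each). Both set trex against wt replicates 1 and 4 only, so they are not separate checks, and with fewer wt libraries calls are harder to reach. The cause of the other changes in count was not tested. Depth limited Fgf17 and, in trex replicates 2 to 4, Fgf4, which rest on a few reads.

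The replicate numbers do not show pairs: deviations of same-numbered libraries correlated at 0.162, -0.023, -0.004 and 0.252, and not every library correlated best with its own number. Low and high numbers did differ. Trex replicates 1 and 2 correlated with wt replicate 1 at 0.162 and 0.15 and with wt replicate 4 at -0.146 and -0.157. For trex replicates 3 and 4 these values were -0.162 and -0.261, and 0.155 and 0.252. With wt replicates 2 and 3 all trex libraries were at -0.023 to 0.022. A shared source was not tested. With the replicate number as a block, 687 genes were called over all genes, and the ligands called were still 2 higher and 0 lower (Fgf3 adjusted p = 0.0188, Fgf15 adjusted p = 0.0352, by limma). Of the called pathway genes, Map2k1 (0.0743), Mapk3 (0.0686) and Hs6st2 (0.0887) were not called with the block.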
